A study of Drosophila melanogaster with 6 samples.

Results

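The genes schuy, hale, soti, c-cup, d-cup, m-cup, p-cup, r-cup, t-cup and w-cup of Drosophila melanogaster are known as comet and cup genes and are transcribed in spermatids after meiosis. These 10 genes were taken by name from the 17559 genes of the count tables, and each was found under 1 identifier. They were followed in RNA-seq libraries of adult testes. The males were 3 to 5 days old and came from crosses kept at 28 °C. The 3 libraries of miR-2b-1 overexpression came from actin5C-Gal4>UAS-miR-2b-1 males. The 3 control libraries came from actin5C-Gal4>w1118 males, which carry the same driver without the UAS transgene (the study's text also names OreR as the control strain). The actin5C-Gal4 driver is active in most cells of the fly, the UAS construct is a single UASp insertion line, and each library is a pool of many testes. Because the parent strain changes together with the transgene, the effects of these cannot be told apart here. Expression is given as CPM, the count of a gene per unit of library size, with library sizes scaled by edgeR's TMM method.

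In the Drosophila testis, most of the RNA that a spermatid needs is made earlier, in primary spermatocytes, and stored until after meiosis. The comet and cup genes depart from this pattern, since their RNA is at its highest in elongating spermatids. It gathers at the far ends of the elongating sperm tails, in shapes that gave the genes their names. Of the 10 genes, soti has the best known product, an inhibitor of the Cul3 ubiquitin ligase. That ligase switches on caspases when spermatids shed their cytoplasm, and Soti forms a gradient along the sperm tails. For the other genes no molecular role is given here.

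The total count on genes was 21202512 to 27789620 in the overexpression libraries and 18047619 to 20282355 in the control libraries. The 10 genes had between 629 and 77589 counts per library, and at 629 counts the counting error is 3.99%. The targeted gene mir-2b-1 had 0 counts in each of the 6 libraries, so its counts could not check the labels. The libraries were not alike in their share of other tissue. The accessory gland level is the summed CPM of a list of 25 genes, mostly of the accessory gland. The list also held Ebp, EbpII and Dup99B, genes known from the ejaculatory bulb and duct. This level was 529, 1382 and 12048 CPM in overexpression replicates 1, 2 and 3, against 11484, 213 and 7401 CPM in control replicates 1, 2 and 3. In bulk RNA, fewer cells of a type and less RNA per cell cannot be told apart.

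The 10 genes are spread over the genome, with 3 on chromosome arm 2L, 2 on 3L, 3 on 3R and 2 on X (Ensembl annotation, BDGP6, the assembly also known as dm6). The genes schuy (FBgn0036925, chromosome 3L, 19986093 to 19988072, plus strand) and hale (FBgn0036924, chromosome 3L, 19984426 to 19985868, minus strand) are neighbours that point away from each other, with 224 bp between them. The gene soti (FBgn0038225, chromosome 3R, 14380663 to 14381699, minus strand) and t-cup (FBgn0051858, chromosome 2L, 12496616 to 12497333, minus strand) each have a single exon. In addition, t-cup lies within the span of bun, and w-cup (FBgn0032269, chromosome 2L, 10575860 to 10577792, minus strand) within the span of Trim9 on the opposite strand, in both cases without shared exon sequence. The gene c-cup (FBgn0031367, chromosome 2L, 1831627 to 1832565, minus strand) shares 115 bp of exon with mir-2280. The gene d-cup (FBgn0038089, chromosome 3R, 12891956 to 12893158, plus strand) shares 457 of its 1095 bp of exon with the antisense RNA asRNA:CR44235, and schuy shares 46 bp with Csas. Both mir-2280 and asRNA:CR44235 had 0 counts in all 6 libraries, and how reads in shared sequence were counted is not stated, so the level of d-cup in particular is uncertain. The remaining genes are m-cup (FBgn0038488, chromosome 3R, 17144475 to 17149412, minus strand), p-cup (FBgn0030840, chromosome X, 17446350 to 17448774, minus strand) and r-cup (FBgn0031142, chromosome X, 21023390 to 21025888, minus strand). The predicted proteins range from 147 amino acids for Soti to 702 for the longest form of m-cup.

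**Figure D1:**
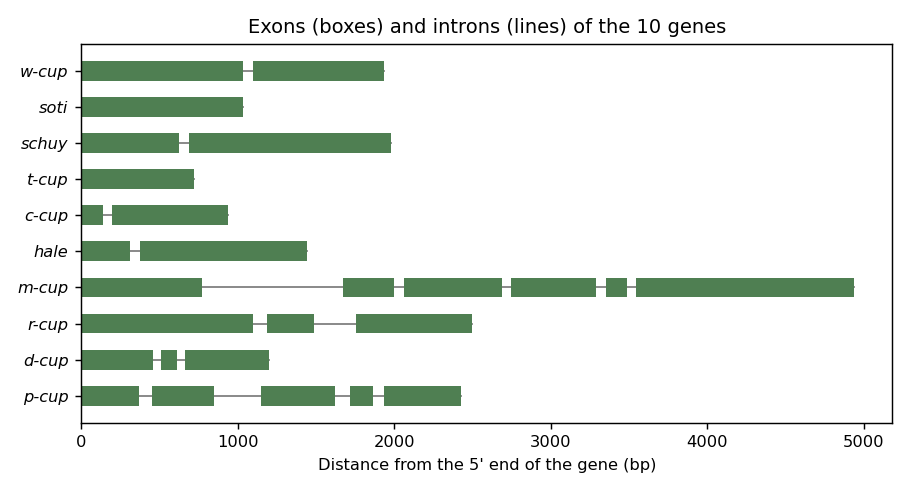
Exons (boxes) and introns (lines) of the 10 genes, drawn to scale from the 5′ end of each gene in bp and ordered by level per length. The genes soti and t-cup have 1 exon, and m-cup, with up to 6 exons, is the longest at 3792 bp of exon.

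Per length, the 10 genes spanned a 69.4-fold range of levels in these testes. The mean over the 6 libraries was 1582 CPM per kb of exon for w-cup, 731 for soti, 315 for schuy, 306 for t-cup, 268 for c-cup, 204 for hale, 144 for m-cup, 64.8 for r-cup, 55.1 for d-cup and 22.8 for p-cup. By this measure w-cup stood above 99.6% of the detected genes, and p-cup, the lowest of the 10, above 77.0%. The step between w-cup and soti, and those between soti and schuy, hale and m-cup, m-cup and r-cup, and d-cup and p-cup, were larger than the spread of the libraries, since the ranges did not overlap. The ranges of schuy, t-cup, c-cup and hale overlapped from each to the next, as did those of r-cup and d-cup. Compared within each library, t-cup was above c-cup, and c-cup above hale, in all 6. There, r-cup was above d-cup in 5 of 6 and schuy above t-cup in 4 of 6. Within the summed level per length of the 10 genes, w-cup took 38.2 to 44.6% in the overexpression libraries and 43.4 to 44.0% in the control libraries. The share of soti was 17.9 to 24.8% under overexpression and 19.3 to 19.7% in the control. These shares overlapped between the groups, and both varied more among the overexpression libraries.

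**Figure D2:**
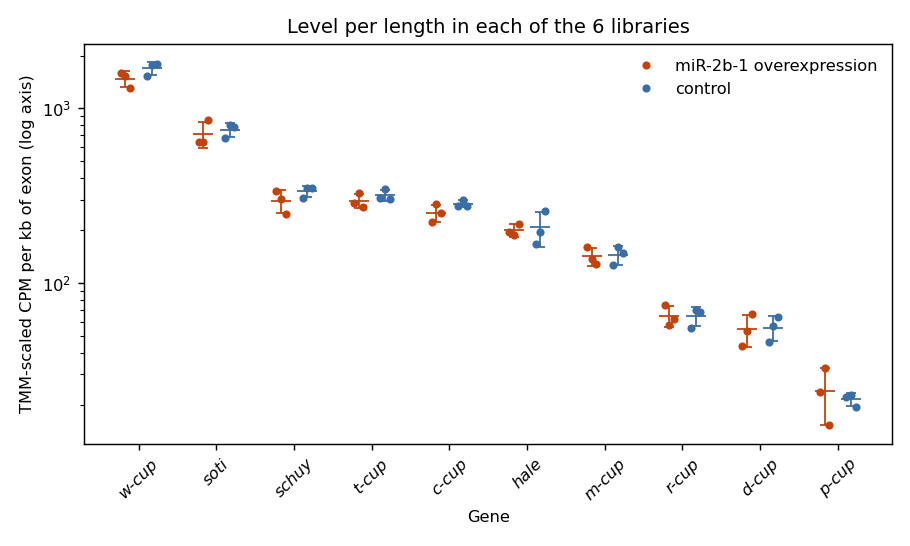
TMM-scaled CPM per kb of exon (log axis) of each gene in the miR-2b-1 overexpression libraries (left of each pair) and in the control libraries (right); points are libraries, bars the mean and SD (n = 3 each). The order of the genes runs from w-cup at 1582 to p-cup at 22.8 CPM per kb, and the groups overlap for each of the 10 genes.

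The comparison of miR-2b-1 overexpression with control asks which genes changed in the testes with the transgene. None of the 10 comet and cup genes did by this test. At an adjusted p under 0.05 (quasi-likelihood test in edgeR, Benjamini-Hochberg adjustment over 17559 genes; SE below stands for standard error), 0 of the 10 were called, where 2.81% of all genes were. At an unadjusted p under 0.05 the count was also 0 of 10, against 14.7% of all genes. The CPM of the groups overlapped for each of the 10 genes, while they did not overlap for 19.9% of all genes. The median log2 fold change of the 10 genes was -0.07, beside 0.01 over the 12441 genes that passed a filter on low counts (edgeR's filterByExpr), which all 10 passed. Among those 12441 genes, 3.87% were called, 2398 had an unadjusted p under 0.05 in edgeR, and in 3154 the groups did not overlap. A log2 fold change below 0 was fitted for 8 of the 10 genes and above 0 for 2, p-cup and r-cup, where 48.4% of the genes passing that filter were below 0 and 51.6% above. These signs depend on the scaling: with total counts alone, which moved the median of all genes to 0.12, 3 of the 10 were below 0 and their median was 0.05. The 95% intervals hold for the main fit with TMM scaling alone and carry no error of the scaling. For 9 of the 10 genes they lay between 0.703-fold and 1.26-fold of the control. The interval of p-cup reached 1.61-fold. An adjusted p above the threshold does not show that the levels were equal.

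**Figure D3:**
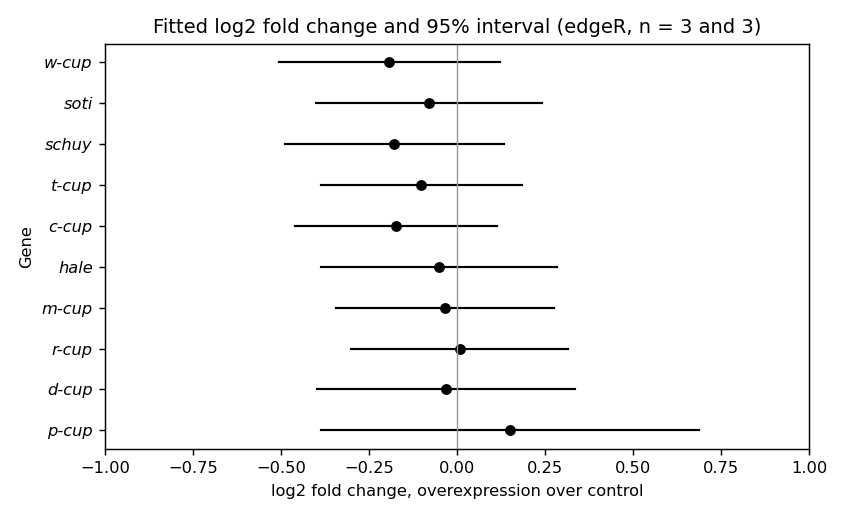
Fitted log2 fold change (overexpression over control) of each gene with its 95% interval from edgeR (3 libraries each). The 10 intervals all include 0, and that of p-cup is the widest, from -0.39 to 0.69.

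The Cul3 inhibitor gene soti had 665, 663 and 883 CPM in overexpression replicates 1, 2 and 3, against 700, 829 and 810 CPM in control replicates 1, 2 and 3. The overexpression group thus held both the lowest and the highest library, with replicate 3 far above the other 2. The group means were 737 ± 126 CPM under overexpression and 779 ± 69.7 CPM in the control (SD, n = 3 each). The log2 fold change was -0.08 (SE 0.153, edgeR adjusted p = 0.948). The accessory gland level was 12048 CPM in overexpression replicate 3, the library with the highest soti, and 11484 CPM in control replicate 1, the control library with the lowest. With that level as a covariate the log2 fold change of soti was -0.08 (edgeR adjusted p = 0.934). Without overexpression replicate 3 and control replicates 1 and 3, the libraries with most accessory gland RNA, the log2 fold change of soti was -0.32 (edgeR adjusted p = 0.438). Both fits were chosen after seeing the data, and in the last 1 control library stands alone and is assumed to vary like the others.

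The divergent pair schuy and hale followed each other only in part across the libraries. Among the controls both were lowest in replicate 1. In overexpression replicate 3, schuy was at its lowest and hale at the highest of that group. The gene schuy had 645, 579 and 479 CPM in overexpression replicates 1, 2 and 3, against 588, 669 and 670 CPM in control replicates 1, 2 and 3. Overexpression replicate 3 was its lowest library and the other overexpression libraries lay within or near the control range. Its log2 fold change was -0.18 (SE 0.147, edgeR adjusted p = 0.673). The gene hale had 271, 259 and 302 CPM under overexpression, against 232, 273 and 358 CPM in the control. Here the control group held both the lowest and the highest library, and the log2 fold change was -0.05 (SE 0.159, edgeR adjusted p = 1.00). The CPM ratio of schuy to hale was 2.38, 2.23 and 1.58 in overexpression replicates 1, 2 and 3 and 2.53, 2.45 and 1.87 in control replicates 1, 2 and 3, lowest in replicate 3 of either group.

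Of the cup genes, w-cup had 2991, 2853 and 2455 CPM in overexpression replicates 1, 2 and 3, against 2846, 3307 and 3331 CPM in control replicates 1, 2 and 3. Control replicate 1 lay among the overexpression libraries and the other controls above them. The means were 2766 ± 278 CPM under overexpression and 3161 ± 273 CPM in the control (SD, n = 3 each), and the log2 fold change of -0.19 (SE 0.149, edgeR adjusted p = 0.643) was the one farthest from 0 among the 10 genes. The gene c-cup had 197, 248 and 221 CPM under overexpression, against 245, 264 and 243 CPM in the control, a log2 fold change of -0.17 (SE 0.136, edgeR adjusted p = 0.649). Overexpression replicate 2 reached the control range and the other 2 lay below it. For t-cup the values were 206, 235 and 196 CPM under overexpression, against 220, 247 and 217 CPM in the control, a log2 fold change of -0.10 (SE 0.135, edgeR adjusted p = 0.846). In both c-cup and t-cup, replicate 2 was the highest library of its group.

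The genes m-cup and r-cup had closely matched group means. The CPM of m-cup was 606, 518 and 490 in overexpression replicates 1, 2 and 3, against 478, 609 and 566 in control replicates 1, 2 and 3, a log2 fold change of -0.03 (SE 0.146, edgeR adjusted p = 1.00). For r-cup it was 160, 123 and 134 under overexpression, against 119, 150 and 147 in the control, a log2 fold change of 0.01 (SE 0.146, edgeR adjusted p = 1.00). In both genes control replicate 1 was the lowest library, and overexpression replicate 1 was at or near the top. The sign of the r-cup value is not meaningful, since it turned negative with RLE scaling, among others.

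The least abundant genes per length, d-cup and p-cup, varied most within the overexpression group. The gene d-cup had 47.9, 58.4 and 72.8 CPM in overexpression replicates 1, 2 and 3, against 50.4, 62.3 and 70.2 CPM in control replicates 1, 2 and 3. The lowest and the highest library were both overexpression libraries, and the log2 fold change was -0.03 (SE 0.173, edgeR adjusted p = 1.00). The X-linked p-cup had 44.7, 61.4 and 28.9 CPM under overexpression, against 42.0, 42.9 and 36.8 CPM in the control. Its coefficient of variation was 36.1% under overexpression and 8.17% in the control, and the lowest overexpression library lay below the highest by 2.13-fold. The log2 fold change of 0.15 (SE 0.240, edgeR adjusted p = 0.914) became 0.39 without overexpression replicate 3 and -0.12 without overexpression replicate 2, so single libraries set its direction. In neither of those fits was p-cup past the threshold, with an edgeR adjusted p of 0.222 and 0.963.

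Seen by library, the 10 genes were of mixed direction in each overexpression library and more alike in the control libraries. Against its own mean, each gene but c-cup was lower in control replicate 1, and each but hale higher in control replicate 2. In control replicate 3 all but p-cup and t-cup were higher. Some of these differences were small, such as -0.003 on the log2 scale for t-cup in control replicate 1. Control replicates 2 and 3 were the highest library for 3 genes each, overexpression replicate 3 for 2, and overexpression replicates 1 and 2 for 1 each. Control replicates 2 and 3 were the lowest library for 0 genes. Overexpression replicate 3 was the lowest library for 4 genes (schuy, p-cup, t-cup and w-cup) although it was the highest for soti and d-cup. Control replicate 1 was the lowest for 3 genes (hale, m-cup and r-cup). The highest library exceeded the lowest by 1.26-fold for t-cup, the steadiest gene, and by 2.13-fold for p-cup, the least steady. The summed CPM of the 10 genes was 5833, 5598 and 5260 in overexpression replicates 1, 2 and 3, against 5520, 6453 and 6447 in control replicates 1, 2 and 3, and these ranges overlapped.

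**Figure D4:**
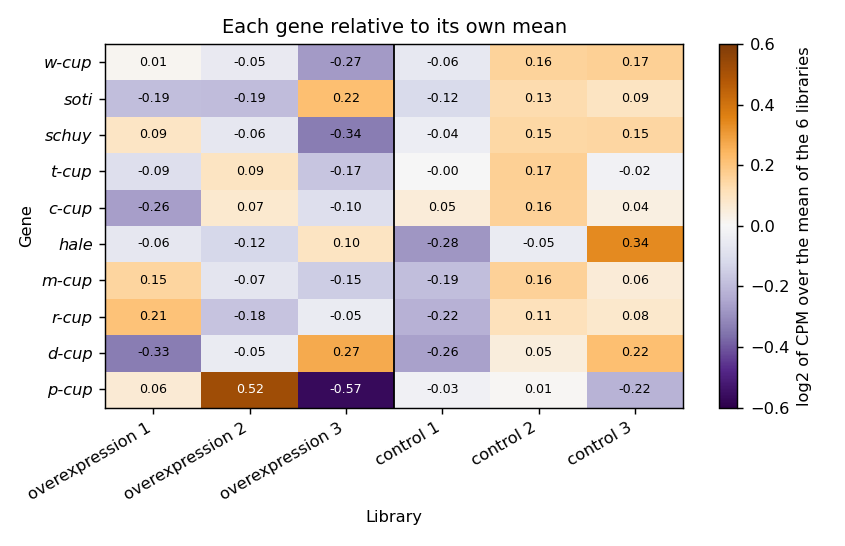
Level of each gene in each library as the log2 of its CPM over its own mean of the 6 libraries, with overexpression libraries left of the line and control libraries right of it. The overexpression columns are of mixed sign. Control replicate 1 is below 0 for all genes but c-cup, and control replicate 2 above 0 for all but hale. The widest range is that of p-cup, from -0.57 in overexpression replicate 3 to 0.52 in overexpression replicate 2.

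Further comet and cup genes were read in the same way. Of 10 others looked for by name, 9 were matched, 6 passed the filter on low counts, and 0 were called. Their median log2 fold change was -0.17. The most abundant, boly, had 666 CPM under overexpression and 787 CPM in the control (group means), a log2 fold change of -0.24 (SE 0.144, edgeR adjusted p = 0.490). The genes cola, swif and hubl were listed at 0 in all 6 libraries. The annotation gives cola and swif the same 2074 bp of exon, and hubl lies wholly within exon sequence of spaw, which was also listed at 0. Zero counts do not show that these 4 genes were silent in the testes.

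Soti acts on the Cul3 ligase of spermatids, and 15 genes of that ligase and of spermatid caspase activity were read beside it. Of the 13 that passed the filter, 0 were called, 6 had a log2 fold change above 0 and 7 below, with a median of -0.01 that turned positive with total counts alone (0.10), among others. Cul3 itself, the scaffold subunit of the ligase and the most abundant of the list, had 1069 CPM under overexpression and 998 CPM in the control (group means), a log2 fold change of 0.10 (SE 0.177, edgeR adjusted p = 0.936). The adaptor gene klhl10 and the ring subunit gene Roc1b were listed at 0 in all 6 libraries, so the ligase as a whole could not be read from these counts.

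Genes of other stages give the setting for these values. Among 25 genes that are transcribed in spermatocytes and mostly used in spermatids, 0 were called and 21 had a log2 fold change below 0, with a median of -0.14 (the list also held dhd, a gene known from the ovary). S-Lap1, a sperm leucyl aminopeptidase gene and the most abundant of this list, had 7108 CPM under overexpression and 7938 CPM in the control (group means), a log2 fold change of -0.16 (SE 0.164, edgeR adjusted p = 0.763). For 6 genes of sperm chromatin proteins the median was -0.27, with 0 called, and the most abundant, Mst77F, had a log2 fold change of -0.26 (SE 0.172, edgeR adjusted p = 0.568). Lists of earlier stages lay on the other side. Of 14 meiotic arrest genes, which switch on the spermatocyte program, 12 had a log2 fold change above 0, with a median of 0.35, and of 12 genes of mitotic germ cells and cell cycle control, all 12 did, with a median of 0.43. In both lists 0 genes were called. An unadjusted p under 0.05 in edgeR was found for 8 of the 14 arrest genes and 5 of the 12 mitotic genes. Of these 8 arrest genes, mia was lower under overexpression (log2 fold change -0.50, SE 0.149, edgeR adjusted p = 0.0882), and the others were higher. An unadjusted p under 0.05 was also found for 4 of the 25 spermatocyte-transcribed genes, 1 of the 6 chromatin genes and 2398 of the 12441 genes passing the filter. Of those 4, dj, janB and Mst98Ca were lower under overexpression and fzo was higher (log2 fold change 0.43, SE 0.157, edgeR adjusted p = 0.191). The most abundant arrest gene was mip40, with a log2 fold change of 0.13 (SE 0.156, edgeR adjusted p = 0.817). On the mitotic list it was CycB, with one of 0.05 (SE 0.131, edgeR adjusted p = 0.997). The largest log2 fold changes of the mitotic list were those of ovo (1.86), aub (0.98), zpg (0.96) and nanos (0.89). These genes had low levels, with means of 0.684, 13.3, 2.77 and 2.58 CPM under overexpression. The more abundant bgcn and CycA, at 66.3 and 103 CPM under overexpression, had log2 fold changes of 0.01 and 0.34. The medians of the arrest and mitotic lists stayed above 0, and those of the spermatid lists below 0, under each alternative run. The difference between lists was not tested.

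**Figure D5:**
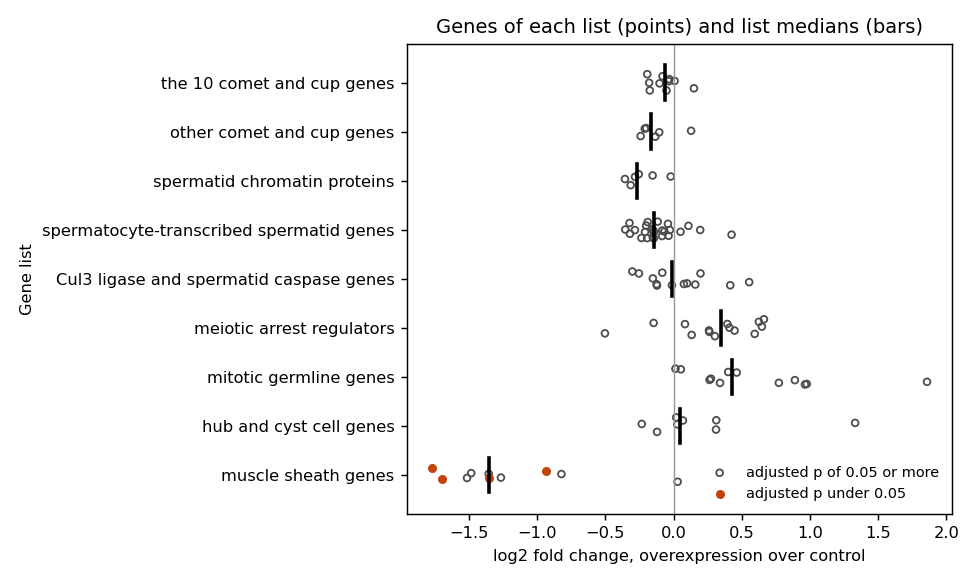
log2 fold change (overexpression over control) of the genes of each list shown that passed the filter on low counts. Open points are genes with an adjusted p of 0.05 or more, filled points those under it, and bars are list medians. The accessory gland and fat body lists are not drawn. The 10 comet and cup genes lie close to 0 (median -0.07), the meiotic arrest and mitotic lists lie higher (0.35 and 0.43), and the muscle list lies lowest (-1.35).

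The other cells of a dissected testis were read from marker lists. Of 8 hub and cyst cell genes 0 were called, with a median log2 fold change of 0.05 (-0.03 with upper-quartile scaling), and their summed level was 108 to 129 CPM under overexpression and 106 to 117 CPM in the control. The most abundant was eya, with a log2 fold change of 0.07 (SE 0.157, edgeR adjusted p = 0.987). Of 10 muscle genes, 4 fell (Mhc, Mlc1, Mlc2 and TpnC47D), all parts of the contractile apparatus, where 1.51% of all genes were called lower. The summed muscle level was 239 to 255 CPM under overexpression and 338 to 570 CPM in the control. This count was 2, 1 and 5 without overexpression replicates 1, 2 and 3, and 7, 2 and 9 without control replicates 1, 2 and 3. It was 1 with the replicate block. Of 6 fat body genes that passed the filter, 0 were called, with a median of -0.77 (-0.27 without control replicate 1), and the most abundant was apolpp, with a log2 fold change of -0.11 (SE 0.162, edgeR adjusted p = 0.897). Of 24 genes of the accessory gland list that passed it, 0 were called, with a median of -0.47. The most abundant of these was Acp36DE, with a log2 fold change of -0.64 (SE 1.915, edgeR adjusted p = 1.00). Single libraries set the size and sign of the accessory gland median, which was 0.06, -0.06 and -2.52 without overexpression replicates 1, 2 and 3, and 0.24, -1.04 and -0.29 without control replicates 1, 2 and 3. With the accessory gland level as a covariate, and with the libraries low in it alone, 0 of the 10 comet and cup genes were called. Both fits were added after seeing the data. The part of muscle and fat body RNA in the values of the 10 genes was not tested.

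The genes beside the 10 were read by position. There are 23 distinct genes that overlap one of the 10 or lie next to it, of which 16 passed the filter and 2 were called, 1 in each direction, where 3.87% of all genes passing that filter were called. Next to soti, at a distance of 3318 bp on the same strand, the noncoding gene lncRNA:CR44943 had 11.9, 14.7 and 11.3 CPM under overexpression, against 24.6, 28.5 and 20.9 CPM in the control. It fell by 0.97 on the log2 scale (SE 0.179, edgeR adjusted p = 0.00452), while soti did not pass the test. Without control replicate 2 its edgeR adjusted p was 0.0530. Next to p-cup, at 215 bp, CG8568 had 8.44, 5.88 and 6.97 CPM under overexpression, against 2.31, 3.55 and 4.21 CPM in the control, a log2 fold change of 1.08 (SE 0.257, edgeR adjusted p = 0.0282). The call on CG8568 was lost in 4 of the 6 fits that left out 1 library, namely those without overexpression replicate 1 or 2 or control replicate 1 or 2. It was also lost with the replicate block (edgeR adjusted p = 0.103), with a prior that is not robust (0.119), with the newer quasi-likelihood method (0.0543) and with filterByExpr (0.0545). Whether either difference in call between neighbours is itself larger than the error was not tested.

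Over the 6 libraries, the genes whose pattern was most like the average pattern of the 10 were CG10845, CG7251, CG5214, CG17260 and Tektin-A, the last a filament protein of the sperm tail axoneme. Their Pearson r with that pattern, on log2 values, was 0.988, 0.982, 0.981, 0.976 and 0.971. These are the highest of 6877 genes over 6 points that share the same libraries, and they are given as a description without a test. None of the 5 was called between the groups.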

How the data were processed

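RNA-seq of adult testes was analysed in 3 miR-2b-1 overexpression and 3 control samples. Reads were trimmed with cutadapt, aligned to dm6 with STAR and assigned to genes by featureCounts, and the authors deposited the raw counts. Strand setting and handling of reads on shared sequence are not given in the sources used here. A table of the authors' comparison (log2 fold changes, F, p-values) was not used, nor were 6 columns of normalized values. Rows naming no gene numbered 0.

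All genes were fitted with edgeR 4.0.16 in R 4.3.3 (TMM, robust quasi-likelihood, older method, no filter, Benjamini-Hochberg adjusted p under 0.05). Standard errors are the size of the log2 fold change divided by the square root of F. The 95% intervals use edgeR's moderated degrees of freedom. The fit was tested on simulated data. Exon lengths and positions came from Ensembl release 115. List medians use genes passing filterByExpr. Likeness was computed on log2 of CPM plus 0.5, among genes with a mean of at least 10 CPM. The genes named were all 10 members, the called and most abundant genes of each list, neighbours, and the 5 most alike.

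The counts of every 2 libraries differed by far more than sampling noise (chi-square over its degrees of freedom at least 28.0 in 15 pairs), so no library was a copy of another. Whether replicates are separate crosses is not stated, so p-values measure the spread between these pools. The members and lists were chosen with earlier results of these data known. Alternatives were RLE, upper-quartile and total-count scaling, DESeq2 1.42.0, 2 filters on low counts, a prior that is not robust, the newer quasi-likelihood method, a replicate block, each replicate left out, and an adjusted p under 0.01. Those added after seeing the data were an accessory gland covariate and libraries with little accessory gland RNA alone. Planned promoter motifs and protein comparisons were not run, since no sequence was used here.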

Additional observations from a re-analysis of the deposited data

How the results depend on the processing

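The count of comet and cup genes called stayed at 0 under each alternative run, planned or added. The count over all genes was 493 and moved to 742 with DESeq2, 236 with a prior that is not robust, 251 at an adjusted p under 0.01, and, among the alternatives added after seeing the data, 745 with the accessory gland covariate and 956 with the libraries low in accessory gland RNA alone. When single replicates were left out it ranged from 205, leaving out overexpression replicate 2, to 923, leaving out overexpression replicate 3. With the replicate block it was 349, and the block changed no call among the 10 genes. The count of muscle genes called was 4, and it was 1 with the block, 2 with the prior that is not robust, 7 with RLE or the covariate, and 9 with upper-quartile scaling, DESeq2 or the libraries low in accessory gland RNA. The median log2 fold change of the accessory gland list was -0.47, and it was 0.12 with the replicate block, 0.13 with the covariate and 2.39 with the libraries low in accessory gland RNA. Over 12441 genes, the deviations of same-numbered samples from their group means had Pearson r of -0.60, 0.38 and 0.54. These values are of mixed sign and do not settle whether the numbers pair the samples. The cause of these changes was not tested.

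Of 170 values of the 10 log2 fold changes, 148 kept their sign and 22 turned, 0 of them past the threshold. With total counts alone, positive values were fitted for hale (0.0679), soti (0.0320), d-cup (0.0849), m-cup (0.0805) and t-cup (0.0076). The value of r-cup was negative with RLE (-0.0091), upper-quartile scaling (-0.0690), DESeq2 (-0.0090), at least 10 counts in every sample (-0.00167), the covariate (-0.00514) and the libraries low in accessory gland RNA (-0.0795). Without single replicates the ranges were -0.18 to 0.14 for hale, -0.23 to 0.00165 for soti, -0.20 to 0.11 for d-cup, -0.13 to 0.0433 for m-cup, -0.12 to 0.39 for p-cup and -0.11 to 0.10 for r-cup.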

Other observations

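The summed CPM of the 10 genes was divided by that of other germline lists within each library. No scaling alters this measure, which was chosen after the values had been seen. The sums are set mostly by a few abundant genes. In overexpression replicate 1, w-cup held 2991 of the 5833 CPM of the 10 genes. Of the 405 CPM of the mitotic list there, CycB, CycA and bgcn had 156, 118 and 81.0 CPM. The ratios thus do not read all listed genes alike. The summed CPM of the 10 comet and cup genes was 14.4, 15.0 and 16.5 times that of the mitotic germline list in overexpression replicates 1, 2 and 3, against 17.3, 18.4 and 21.6 times in control replicates 1, 2 and 3. Relative to the meiotic arrest list the ratio was 9.66, 8.84 and 10.3 under overexpression, against 10.6, 12.6 and 15.1 in the control. The groups did not overlap in either ratio, although 0 genes of the 3 lists were called. Among single genes, the CPM of the groups did not overlap for 19.9% of all genes. Both ratios share 1 numerator, and their nearest values were 16.5 against 17.3 and 10.3 against 10.6. Relative to the genes transcribed in spermatocytes for use in spermatids, the same sum was 10.9, 9.91 and 10.1% under overexpression and 10.5, 10.3 and 9.76% in the control, and relative to the sperm chromatin genes the ratio was 1.09, 0.933 and 1.05 under overexpression and 0.913, 0.889 and 1.12 in the control. These last 2 measures overlapped between the groups. No test is given for these ratios, and cell numbers and RNA per cell cannot be told apart in them.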
